A study of Mus musculus with 4 samples.

Results

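Cell cycle arrest in senescent cells is held by a small set of proteins, and 10 genes that encode them or report on them were followed here: the CDK inhibitors Cdkn2a, Cdkn2b, Cdkn2c, Cdkn2d, Cdkn1a and Cdkn1b, the p53 gene Trp53 and its ubiquitin ligase Mdm2, the D-type cyclin gene Ccnd1 and the lamin gene Lmnb1. The genes were chosen by name, with earlier results of these data known. Every array probe that mapped to one of them was used. This gave 14 of the 56605 gene probes and 10 of the 22911 named genes. The comparison was between islet cells given MOTS-c, a peptide encoded in the mitochondrial 12S rRNA gene, and islet cells given a scrambled peptide. Its question was whether MOTS-c changes gene expression in aged pancreatic islets.

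Islets were taken from 60-week-old male C57BL/6 littermates, dispersed to single cells and kept ex vivo in medium with serum. The cells received either peptide at 10 μM for 24 h, and each treatment is represented by 2 one-colour Agilent arrays (replicates 1 and 2 of scrambled, 2 and 3 of MOTS-c). There was no untreated group and no young group, so levels can be compared only between the peptides. Between 61.6% and 65.0% of the gene spots of an array were well above their local background and 0 were saturated. The Agilent processed intensities were taken to log2, quantile normalized and compared with limma, and a difference is always MOTS-c minus scrambled on this log2 scale. With 2 arrays a group the number of arrays limits the precision, and an exact permutation test of a single gene (two-sided) could not give a p below 0.333. None of the labels says which animal gave which array, so p-values measure the spread between these arrays, which may be technical. The median absolute log2 difference between a pair of arrays was 0.162 to 0.236, with MOTS-c replicate 3 and scrambled replicate 2 the farthest apart.

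The labelled tissue and sex were checked against their markers. Ins2 had a log2 signal of 18.54 on 3 arrays and 18.64 on scrambled replicate 2, and Gcg and Sst were well above background on all 4 arrays, while no probe of Ucn3, a marker of mature beta cells, passed the filter on dim probes. All 10 genes of a list for S phase and mitosis, Mki67 among them, were well above background on all 4 arrays, although adult islet cells seldom divide. The mean log2 signal of this list was high, at 14.47 to 14.63 on the 4 arrays. The 7 probes of 4 Y-linked genes stayed dim on every array (0 of 28 readings well above background), and the Xist probe was bright on all 4, which goes against the label male for all 4 arrays alike. In such bulk samples fewer cells of a type and less RNA per cell cannot be told apart.

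The INK4 proteins p15 (Cdkn2b), p16 (Cdkn2a), p18 (Cdkn2c) and p19 (Cdkn2d) bind CDK4 and CDK6 and keep them from their D-type cyclins, so that the retinoblastoma protein stays unphosphorylated and E2F target genes stay silent. Cdkn2a also encodes ARF from another first exon, read in another frame, and ARF binds MDM2, the ligase that marks p53 for destruction. p53 in turn activates Cdkn1a (p21), which like Cdkn1b (p27) inhibits cyclin E and CDK2 complexes. Loss of lamin B1 is a common mark of senescent cells, and p16 accumulates in beta cells with age.

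The start regions of the INK4 genes are shown because the probes of these 4 genes were lower on both MOTS-c arrays. Cdkn2b and Cdkn2a are neighbours on the minus strand of mouse chromosome 4, with only the noncoding gene Gm12610 between them in the RefSeq gene table of assembly GRCm38.p6, and Cdkn2a has separate starts for its ARF and INK4A transcripts. The sequences are from RefSeq on GRCm38.p6, are 300 bases long, run 5′ to 3′ along the gene and end shortly after the annotated start. Capitals mark the GC box (GGGCGG, or its complement CCGCCC) and the E2F element (TTTCGCGC, TTTGGCGC, TTTCCCGC or TTTGCCGC, either strand), and no E2F match overlapped a GC box in these sequences.
Cdkn2b, chr4:89310983-89311282, minus strand: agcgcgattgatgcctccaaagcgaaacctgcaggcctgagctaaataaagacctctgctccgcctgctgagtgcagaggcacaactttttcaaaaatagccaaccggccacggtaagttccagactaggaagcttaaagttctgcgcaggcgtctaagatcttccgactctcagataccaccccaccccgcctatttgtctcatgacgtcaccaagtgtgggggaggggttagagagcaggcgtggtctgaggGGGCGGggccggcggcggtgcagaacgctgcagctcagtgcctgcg
Cdkn2a, ARF start, chr4:89294570-89294869, minus strand: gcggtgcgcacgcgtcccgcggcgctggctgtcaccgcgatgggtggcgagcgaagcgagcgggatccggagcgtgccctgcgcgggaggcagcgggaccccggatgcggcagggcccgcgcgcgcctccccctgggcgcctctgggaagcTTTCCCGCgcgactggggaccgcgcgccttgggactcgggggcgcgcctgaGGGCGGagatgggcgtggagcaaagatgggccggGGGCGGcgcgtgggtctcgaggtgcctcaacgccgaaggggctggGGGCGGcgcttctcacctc
Cdkn2a, INK4A start, chr4:89282143-89282442, minus strand: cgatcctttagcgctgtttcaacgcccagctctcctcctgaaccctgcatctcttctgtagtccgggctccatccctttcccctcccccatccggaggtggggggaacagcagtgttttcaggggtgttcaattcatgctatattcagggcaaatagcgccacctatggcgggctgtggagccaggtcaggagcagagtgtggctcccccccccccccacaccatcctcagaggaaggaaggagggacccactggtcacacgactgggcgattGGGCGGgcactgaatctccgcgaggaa
Cdkn2c, upstream start, chr4:109666707-109667006, minus strand: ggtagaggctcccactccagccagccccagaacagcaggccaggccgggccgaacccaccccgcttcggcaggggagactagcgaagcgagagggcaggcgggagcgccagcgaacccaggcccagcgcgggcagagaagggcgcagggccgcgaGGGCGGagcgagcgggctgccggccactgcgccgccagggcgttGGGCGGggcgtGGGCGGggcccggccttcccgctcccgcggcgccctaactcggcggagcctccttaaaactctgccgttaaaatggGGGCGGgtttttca
Cdkn2d, chr9:21291160-21291459, minus strand: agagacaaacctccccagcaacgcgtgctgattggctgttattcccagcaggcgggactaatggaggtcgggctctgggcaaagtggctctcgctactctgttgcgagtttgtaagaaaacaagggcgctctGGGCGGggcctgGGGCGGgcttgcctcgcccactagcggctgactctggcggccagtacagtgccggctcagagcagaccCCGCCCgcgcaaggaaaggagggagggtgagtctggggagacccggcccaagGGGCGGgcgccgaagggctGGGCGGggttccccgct

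GC boxes were present in all 5 of these regions, with 1 match at Cdkn2b, 3 at the ARF start, 1 at the INK4A start, 4 at the upstream start of Cdkn2c and 5 at Cdkn2d. A GC box occurred in 35.7% of all 32851 start regions of the table. The ARF start held the 1 E2F match among all regions of these genes in the table, and 2.26% of all start regions held one. CpG pairs numbered 45 at the ARF start, more than in 98.1% of all start regions, but 12 at the INK4A start and 18 at Cdkn2b. A second start of Cdkn2c had no GC box, 8 CpG pairs and 1 E-box (CACGTG, found in 7.15% of all start regions). The p53 element, which was searched as a single decamer, had 2 matches at one of the starts of Cdkn1a, 1 each at Mdm2, Trp53 and Cdkn2d, and 0 at Cdkn2a, Cdkn2b and Cdkn2c, against a share of 8.36% of all start regions. A TATA box (TATAAA) was found at Trp53 and at none of the INK4 starts, and in 13.6% of all start regions.

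The clearest difference among the 10 genes lay in the INK4 family. All 6 probes of Cdkn2a, Cdkn2b, Cdkn2c and Cdkn2d were lower with MOTS-c without overlap of the groups, with a median log2 difference of -0.28. Over all probes tested, 18.6% were lower in this sense, and 20.5% were so among probes at least as bright as the dimmest INK4 probe. The 6 probes are of 4 genes, and probes of a gene or of neighbouring genes are not independent. None passed an adjusted p under 0.05 in limma, and this held for all 35087 probes tested (0% called, smallest adjusted p 0.474), while 2755 had an unadjusted p under 0.05.

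Cdkn2b, whose protein p15 is a CDK4 and CDK6 inhibitor induced by TGF-β, had the largest differences. Its brighter probe (A_52_P498241) gave a log2 signal of 12.24 and 12.10 with scrambled peptide, and 11.82 and 11.54 with MOTS-c. The groups did not overlap, and their nearest arrays were 0.28 apart. The difference was -0.49 (SE 0.16), or 71.3% of the scrambled level (95% interval 53.6% to 94.9%), with an unadjusted p of 0.0292 and an adjusted p of 0.568 in limma.

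The other Cdkn2b probe (A_55_P1988183) gave 10.93 and 11.02 with scrambled peptide, and 10.58 and 10.41 with MOTS-c. The gap between the nearest arrays was 0.35, wider than the difference of 0.09 between the scrambled arrays and of 0.16 between the MOTS-c arrays. The difference of -0.48 (SE 0.13) was nearly that of the first probe, with an unadjusted p of 0.0171 and an adjusted p of 0.539 in limma. These were the 2 tested probes of the 10 genes with an unadjusted p under 0.05 in limma, where 4.82% of all probes were lower and 3.03% were higher at that level. Both lost it when scrambled replicate 1, scrambled replicate 2 or MOTS-c replicate 3 was left out, and the brighter probe also in the methods' t-test (unadjusted p 0.0913, against 0.0365 for the dimmer probe), with differences of -0.63 to -0.35 for the brighter and -0.56 to -0.40 for the dimmer probe over the alternatives.

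Cdkn2a, the locus of p16 and ARF, was measured by 2 probes, both named by the ARF transcript in the array files. The name does not tell whether a probe lies in an exon shared with INK4A, so the 2 products cannot be told apart here. The brighter probe (A_55_P2008437) gave 14.41 and 14.53 with scrambled peptide, and 14.20 and 14.12 with MOTS-c. Its difference was -0.31 (SE 0.13), or 80.5% of the scrambled level (95% interval 64.0% to 101%), with an unadjusted p of 0.0601 and an adjusted p of 0.662 in limma. The dimmer probe (A_51_P144813) gave 9.82 and 10.24 with scrambled peptide, and 9.79 and 9.77 with MOTS-c. Here scrambled replicate 2 stood above the other arrays and scrambled replicate 1 lay only 0.03 above MOTS-c replicate 2. The difference of -0.25 (SE 0.18, adjusted p 0.792 in limma) was -0.04 without scrambled replicate 2, and with the normexp background correction the groups of this probe overlapped.

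Cdkn2c, which encodes p18, had a single probe (A_51_P513719) with 15.71 and 15.68 with scrambled peptide, and 15.62 and 15.52 with MOTS-c. The groups were 0.06 apart, and the difference was -0.12 (SE 0.12, adjusted p 0.848 in limma), or 91.8% of the scrambled level. Cdkn2d, which encodes the INK4 protein p19 and not the p19 of the ARF frame, was read by 1 probe (A_55_P2022251) at 14.37 with scrambled peptide on both arrays, and at 14.17 and 14.19 with MOTS-c. Its scrambled arrays were 0.0019 apart, its MOTS-c arrays 0.023 and the nearest arrays of the groups 0.17. The difference of -0.19 (SE 0.12) had an unadjusted p of 0.175 and an adjusted p of 0.762 in limma, which draws the variance of each probe towards that of all probes. The methods' t-test, which uses the 4 values of the probe alone, gave this probe an unadjusted p of 0.0039 and an adjusted p of 0.640.

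**Figure D1:**
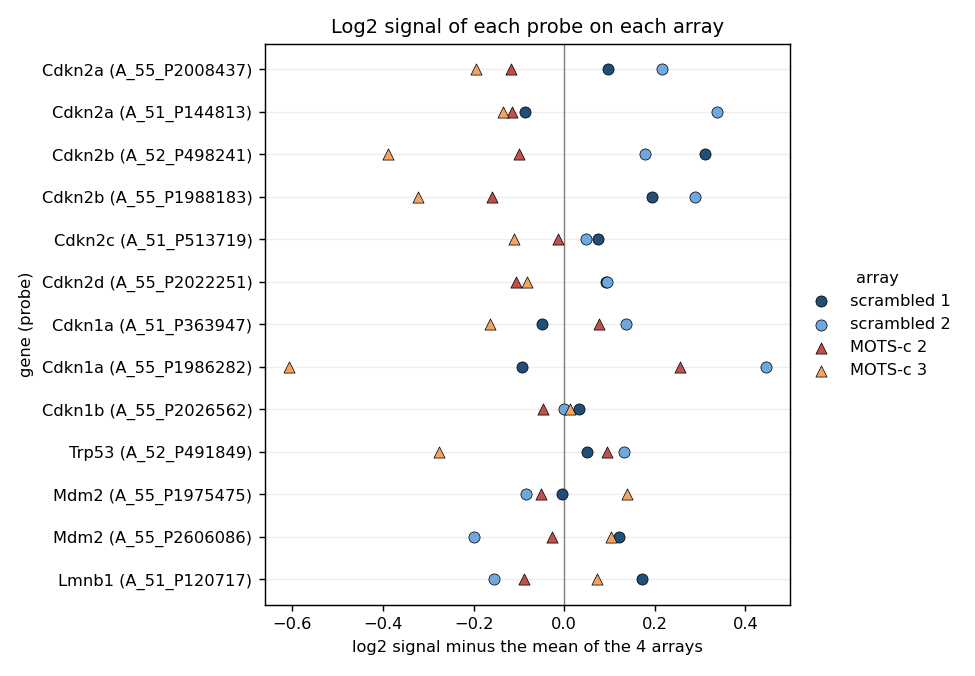
Each row is a probe that passed the filter on dim probes, and the horizontal axis gives its log2 signal on each array minus its mean over the 4 arrays (circles, 2 scrambled arrays; triangles, 2 MOTS-c arrays). The triangles lie left of the circles for all 6 probes of Cdkn2a, Cdkn2b, Cdkn2c and Cdkn2d, and mix with the circles for the other 7 probes.

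The CIP/KIP inhibitors did not separate in this way. Cdkn1a, which encodes the p53 target p21, was read by its brighter probe (A_51_P363947) at 13.29 and 13.48 with scrambled peptide, and 13.42 and 13.18 with MOTS-c. MOTS-c replicate 2 lay between the scrambled arrays and MOTS-c replicate 3 below them. The difference was -0.09 (SE 0.15, adjusted p 0.927 in limma), with a 95% interval from 71.2% to 125% of the scrambled level, and it was 0.04 without MOTS-c replicate 3. The second probe (A_55_P1986282), named by another transcript of the gene, gave 6.94 and 7.48 with scrambled peptide, and 7.29 and 6.43 with MOTS-c. Its groups overlapped, its difference was -0.35 (SE 0.35, adjusted p 0.849 in limma), and its 95% interval of 41.1% to 149% was the widest of the 13 tested probes. Without MOTS-c replicate 2 its difference was -0.78 and without MOTS-c replicate 3 it was 0.08.

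Cdkn1b, which encodes p27 and holds quiescent cells out of the cycle, gave 13.91 and 13.87 with scrambled peptide, and 13.83 and 13.89 with MOTS-c (A_55_P2026562). The 4 arrays lay within a narrow range and overlapped, with a difference of -0.03 (SE 0.12, adjusted p 0.970 in limma). The 95% interval ran from 78.6% to 122% of the scrambled level.

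Trp53 gave 10.07 and 10.15 with scrambled peptide, and 10.11 and 9.74 with MOTS-c (A_52_P491849). MOTS-c replicate 3 alone was low, and the difference of -0.18 (SE 0.17, adjusted p 0.841 in limma) was 0.01 without it. Mdm2, itself a p53 target whose protein limits p53, was read at 13.80 and 13.72 with scrambled peptide, and 13.75 and 13.94 with MOTS-c by its brighter probe (A_55_P1975475). The other Mdm2 probe (A_55_P2606086) gave 7.90 and 7.58 with scrambled peptide, and 7.75 and 7.88 with MOTS-c. Both probes overlapped between the groups, with differences of 0.09 (SE 0.14, adjusted p 0.912 in limma) and 0.08 (SE 0.16, adjusted p 0.938 in limma). They were the 2 of the 13 tested probes that were higher with MOTS-c, and 11 were lower, with a median log2 difference of -0.18 over the 13 probes and 0.01 over all probes tested.

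Ccnd1, the gene of cyclin D1, the partner of CDK4 and CDK6 that the INK4 proteins displace, had a single probe (A_66_P111562) that was not well above background on any of the 4 arrays. Its normalized values without a filter were 3.13 and 3.38 with scrambled peptide, and 3.56 and 3.27 with MOTS-c. It was not tested, and no fold can be given for it.

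Lmnb1, which encodes lamin B1, gave 13.79 and 13.47 with scrambled peptide, and 13.53 and 13.69 with MOTS-c (A_51_P120717). The MOTS-c arrays lay between the scrambled arrays. The difference of -0.02 (SE 0.17, adjusted p 0.992 in limma) had a 95% interval from 72.9% to 134% of the scrambled level, and it was 0.07 with the normexp background correction.

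**Figure D2:**
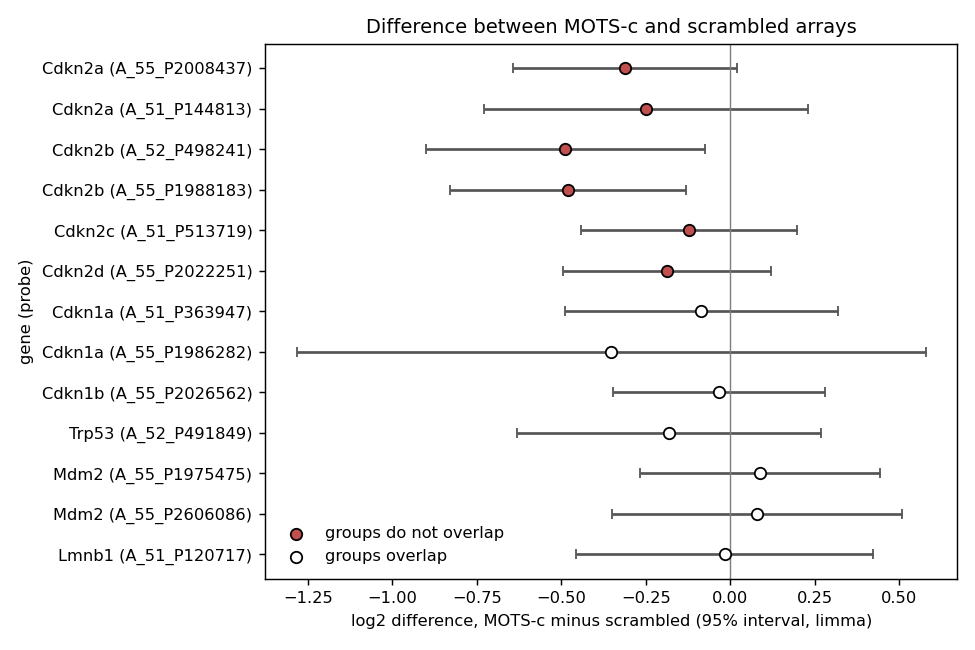
Log2 difference between MOTS-c and scrambled arrays (horizontal axis, 2 arrays a group) with its 95% interval from limma for each tested probe of the 10 genes (rows), filled where the groups do not overlap. The intervals of the 2 Cdkn2b probes lie below 0, and those of the other 11 probes hold 0.

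The INK4 proteins act on the D-type cyclins and their kinases. Of a list of G1 cyclins, kinases and pocket proteins, 19 of 20 genes were tested, each by its brightest probe. The list also held E2F factors and other cell cycle regulators, a CIP/KIP inhibitor among them. Of the 19 genes, 15 were higher and 4 lower with MOTS-c. Their median log2 difference was 0.18, against -0.00 over all 15470 genes tested. Without overlap of the groups, 8 were higher and 1 was lower, where 19.8% of all genes were higher and 22.7% lower in this sense. At an unadjusted p under 0.05 in limma, 1 was higher, the E2F factor gene E2f5 at 0.36 (2.82% of all genes were higher at this level), and 0 were lower (5.79% of all genes).

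The other D-type cyclins gave differences of 0.19 (Ccnd2, SE 0.21, and -0.06 without MOTS-c replicate 3) and 0.19 (Ccnd3, SE 0.13), and the groups of Ccnd3 did not overlap. Ccnd3 was read at 13.79 and 13.92 with scrambled peptide, and 14.00 and 14.09 with MOTS-c. Cdk4, the kinase bound by the INK4 proteins, had a difference of -0.09 (SE 0.13) by its brightest probe, and its 3 probes ranged from -0.24 to -0.09. No probe of Cdk6 passed the filter. Rbl1, which encodes the pocket protein p107, was at the top of the list at 0.44 (SE 0.24, unadjusted p 0.125 in limma), and the retinoblastoma gene Rb1 was at 0.34 (SE 0.21, unadjusted p 0.170 in limma). Without MOTS-c replicate 3 they were at 0.17 and 0.15. Rb1 overlapped between the groups, at 12.62 and 12.25 with scrambled peptide, and 12.59 and 12.96 with MOTS-c, and the 3 probes of Rbl1 ranged from 0.04 to 0.44. Cks1b, a small CDK-binding subunit, was at the bottom at -0.15 (SE 0.12). The smallest adjusted p of the list was 0.593 in limma.

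For genes that p53 activates, differences above and below 0 were near in number. Of 23 of 24 p53 target genes tested, other than Cdkn1a and Mdm2, 10 were higher and 13 lower, with a median log2 difference of -0.03. At an unadjusted p under 0.05 in limma 2 were higher and 2 lower (2.82% and 5.79% of all genes), and the smallest adjusted p was 0.512. Ccng1, which encodes cyclin G1, was highest, at 11.47 and 11.74 with MOTS-c against a scrambled mean of 10.93, a difference of 0.67 (SE 0.15, unadjusted p 0.00846 in limma). Rrm2b, which encodes a ribonucleotide reductase subunit for DNA repair, was also higher without overlap, by 0.62 (SE 0.15, unadjusted p 0.0109 in limma), and by 0.35 with the normexp correction. Gdf15, a secreted stress factor of the TGF-β superfamily, was the lowest of those well above background on all 4 arrays, at 7.75 and 8.12 with scrambled peptide, and 7.41 and 7.17 with MOTS-c. Its difference was -0.65 (SE 0.19, unadjusted p 0.0197 in limma), and -0.43 with the normexp correction. Bbc3, which encodes the cell death protein PUMA, was the other lower gene at this level, at -0.49.

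The genes that control p53 itself were counted in the same way. The mean log2 signal of their list was 9.95 and 9.86 on the scrambled arrays, 9.94 on MOTS-c replicate 2 and 10.15 on MOTS-c replicate 3. On this mean only MOTS-c replicate 3 lay above the scrambled arrays. Of 13 regulators and checkpoint kinases, 10 were higher and 3 lower, with a median log2 difference of 0.20. Without overlap of the groups, 5 were higher and 1 lower (19.8% and 22.7% of all genes). At an unadjusted p under 0.05 in limma 1 was higher and 0 were lower (2.82% and 5.79% of all genes). The 1 gene was Chek2, which encodes the checkpoint kinase CHK2 that phosphorylates p53, which was highest at 0.44 (SE 0.12, unadjusted p 0.0189, adjusted p 0.541 in limma). It gave 7.67 and 7.54 with scrambled peptide, and 8.06 and 8.04 with MOTS-c. Mdm4, the partner of Mdm2, had a difference of 0.20 (SE 0.12) without overlap, and its 4 probes ranged from 0.10 to 0.21. Trp53bp1, a DNA break response gene, was lowest at -0.26 (SE 0.14) by its brightest probe, but its 4 probes ranged from -0.27 to 0.18.

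Polycomb proteins silence the Ink4 locus in young and dividing cells. The list counted here also held histone demethylases, not all of which silence the locus. Of its 11 genes, 6 were higher and 5 lower, with a median log2 difference of 0.01. At an unadjusted p under 0.05 in limma there were 0 in either direction. Ezh2, the Polycomb histone methyltransferase whose loss accompanies p16 accumulation in ageing beta cells, gave 12.09 and 11.96 with scrambled peptide, and 12.15 and 12.36 with MOTS-c. Its groups did not overlap, the difference was 0.23 (SE 0.14, adjusted p 0.762 in limma), and its 5 probes ranged from 0.09 to 0.34. Bmi1 differed by 0.18 (SE 0.18) with overlap, and by 0.0038 without scrambled replicate 2. Suz12 was highest at 0.32 (SE 0.31), where MOTS-c replicate 3 alone was high, and Cbx7 was lowest at -0.20 (SE 0.16).

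The 11 genes of the nuclear lamina and of senescence chromatin stayed within a narrow range, from -0.08 for Banf1 (SE 0.13) to 0.22 for Tmpo (SE 0.24), with a median of 0.05 and 0 at an unadjusted p under 0.05 in limma. The other lamin genes gave -0.06 (Lmna, SE 0.15) and 0.08 (Lmnb2, SE 0.18). Lmnb2 was at -0.01 when all its probes were averaged.

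A further list held senescence markers that the source study read in other samples by qPCR or by staining. The study picked Grem1 and Cd38 as lower with MOTS-c on these same arrays before reading them by qPCR. Their values here repeat that choice, and the list does not give independent evidence of a direction. Of its 7 genes 6 were tested, since no probe of Il6 passed the filter. At an unadjusted p under 0.05 in limma, 1 was higher and 3 were lower, where 2.82% of all genes were higher and 5.79% lower. Igf1r, the IGF-1 receptor used as a marker of senescent beta cells, was the higher one, at 11.30 and 11.64 with scrambled peptide, and 12.35 and 11.99 with MOTS-c. Its difference was 0.70 (SE 0.20, unadjusted p 0.0196, adjusted p 0.543 in limma), and its other probe gave 0.65. Grem1, a secreted BMP antagonist, and Cd38, an NAD-consuming enzyme, had differences of -1.41 (SE 0.15, and -0.79 with the normexp correction) and -0.95 (SE 0.35, and -0.52 without MOTS-c replicate 3), and the interleukin gene Il1b was the third lower gene, at -0.49. The Cdkn2a and Cdkn2b probes were lower on the same arrays on which Igf1r was higher.

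S phase and mitosis genes were balanced, with 5 higher and 5 lower of 10, a median log2 difference of 0.01 and 0 at an unadjusted p under 0.05 in limma. Mki67, the proliferation marker Ki-67, was lowest at -0.40 (SE 0.30), with MOTS-c replicate 2 at 13.54 and the other 3 arrays between 14.15 and 14.49. Top2a, the topoisomerase of dividing cells, was highest at 0.42 (SE 0.23) without overlap, and at 0.13 without MOTS-c replicate 3. The groups of its other probe overlapped, also with a difference of 0.42.

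**Figure D3:**
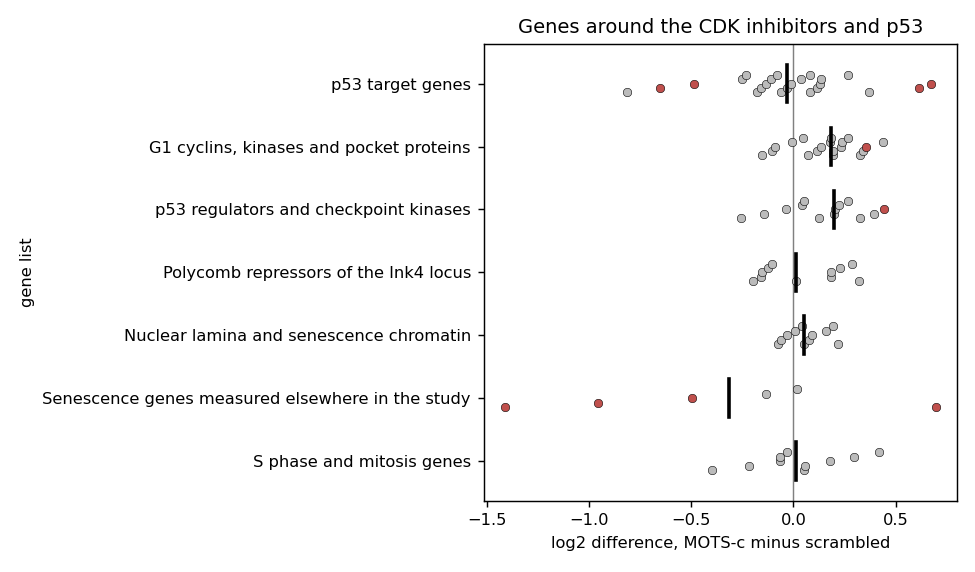
Each point is a gene, by its brightest probe, with its log2 difference between MOTS-c and scrambled arrays on the horizontal axis and its list on the vertical axis (points are spread in height only to keep them apart). Black bars are list medians and red points have an unadjusted p under 0.05 in limma. The medians of the G1 list and of the p53 regulators are 0.18 and 0.20, and the mean signal of the latter is raised on MOTS-c replicate 3 only. The median of the senescence genes measured elsewhere is -0.31, with Grem1 and Cd38 picked by the source study from these same arrays.

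Markers of islet cell types were read on the same arrays. Of 9 beta cell markers 8 were tested, 3 higher and 5 lower, with a median log2 difference of -0.04. Their summed linear signal was 872000 and 897400 with scrambled peptide, and 863900 and 866600 with MOTS-c. Most of this sum came from Ins2 and Ins1, whose values at the top of the arrays are set by rank in quantile normalization. The sums therefore cannot show whether beta cell content was steady. Ins2 differed by -0.05 (SE 0.12), Mafa by 0.16 (SE 0.12) and Pdx1 by -0.28 (SE 0.13). Slc2a2, the glucose transporter of beta cells, was lowest at -1.33 (SE 0.14, unadjusted p 0.000277 in limma), but its probe was well above background on only 1 of the 2 MOTS-c arrays and differed by -0.39 with the normexp correction. Of 4 alpha cell markers 3 were tested, with a median of 0.11. Irx2 was highest at 0.68 (SE 0.16, unadjusted p 0.0102 in limma), and at 0.14 with the normexp correction, whose offset shrinks differences of dim probes. Gcg, the brightest, differed by 0.11 (SE 0.12), and Ttr by -0.27 (SE 0.22) but by -0.0063 without MOTS-c replicate 3. The summed alpha signal was 57700 and 61240 with scrambled peptide, and 62150 and 61210 with MOTS-c. Of the delta and PP markers, all 3 tested, Sst differed by -0.28 (SE 0.22), with scrambled replicate 2 alone high, and by -0.0044 without that array. Sst read 17.17 on both scrambled replicate 1 and MOTS-c replicate 2, near the top of the arrays, where rank sets the values. Hhex differed by 0.44 (SE 0.22), by 0.15 without MOTS-c replicate 2 and by 0.13 with the normexp correction.

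Few markers of other cell types were measurable. Of 6 acinar markers 2 were tested, Cela1 at -0.76 (SE 0.16) and Ctrb1 at 0.33 (SE 0.17), with Cpa1, Prss2, Amy2a5 and Pnlip not passing the filter, and their summed signal was 3541 and 3857 with scrambled peptide, and 2457 and 1995 with MOTS-c. Of 7 mesenchymal markers 2 were tested, Pdgfra at -1.05 (SE 0.33, with -0.40 under the normexp correction and -0.68 without MOTS-c replicate 3) and Col1a2 at -0.30 (SE 0.23, and -0.0024 without scrambled replicate 2), with a summed signal of 202 to 235 on the scrambled and 141 to 165 on the MOTS-c arrays, and the probes of Col1a1, Col3a1, Pdgfrb, Dcn and Lum did not pass. Krt7 was the tested one of 4 duct markers, at -0.39 (SE 0.36). Of 5 endothelial markers 2 were tested, Plvap at 0.01 (SE 0.20, and -0.0045 with the normexp correction) and Pecam1 at 0.18 (SE 0.18), and of 7 leukocyte markers 3 were tested, with Csf1r at -0.21 (SE 0.29) and Cd68 at 0.16 (SE 0.22). The acinar sum came almost wholly from Cela1, while Ctrb1 was higher on both MOTS-c arrays. The mesenchymal sum came from 2 dim probes, and the groups of Col1a2 overlapped. Both sums were lower on both MOTS-c arrays, as the INK4 probes were, but they do not show a lower content of either cell type. Their part in the INK4 differences was not tested.

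The separation of the INK4 probes was looked at under other processing of the same 4 arrays. All 6 INK4 probes were lower without overlap with a shift to a common 75th percentile, with the authors' rounded values, with no filter and with the strict filter on dim probes, and 5 of 6 were with the normexp background correction. The share of all probes lower without overlap was 18.5% to 20.7% in these settings. Which INK4 probes had an unadjusted p under 0.05 changed with the variance estimate. With an intensity trend in limma the brighter Cdkn2a probe (0.00609), both Cdkn2b probes (0.0066 and 0.00671) and Cdkn2d (0.0406) had such a p, with adjusted p-values from 0.349 to 0.567. Over all 35087 probes tested, 1893 were lower at this level with the trend. In the methods' t-test the brighter Cdkn2a probe (0.0488), the dimmer Cdkn2b probe (0.0365) and Cdkn2d (0.0039) had one, with adjusted p-values from 0.640 to 0.757, and the brighter Cdkn2b probe (0.0913) did not. Of all 35084 probes in that t-test, 1231 were lower at this level. Cdkn1a, Trp53, Mdm2 and Lmnb1 each turned direction in at least 1 of the 11 alternatives, and Cdkn1b and the INK4 probes in none, though leaving out an array cannot turn a difference whose groups do not overlap. The methods' t-test and the trend in limma change only the variance estimate, so neither can turn a difference.

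**Figure D4:**
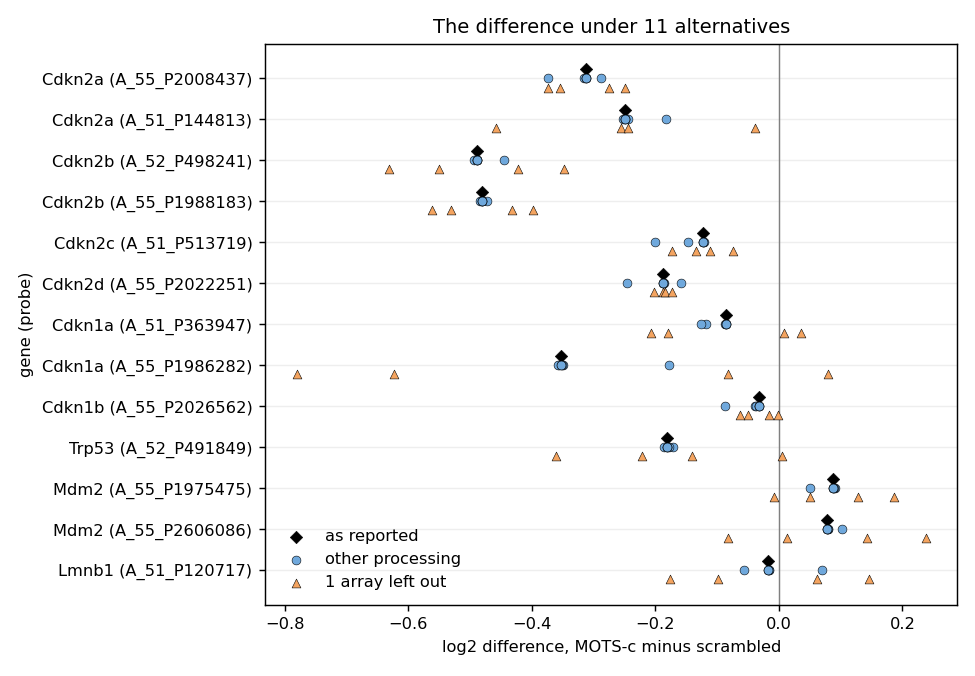
Log2 difference between MOTS-c and scrambled arrays (horizontal axis) for each tested probe of the 10 genes (rows) as reported (diamonds), under 7 other ways of processing or testing (circles) and with 1 of the 4 arrays left out (triangles). The 2 Cdkn2b probes stay between -0.63 and -0.35, and the triangles of Cdkn1a, Trp53, Mdm2 and Lmnb1 lie on both sides of 0.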

How the data were processed

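Islet RNA was measured on 4 one-colour Agilent arrays, 2 for each peptide, grouped by the treatment in the labels, with replicate numbers as the titles give them. The authors labelled amplified RNA with Cy3 and read the spots with Feature Extraction (version 11.0.1.1 per the file headers). Each deposited intensity was corrected for background by that software, array by array, and carries no scaling across arrays. A table of rounded intensities by the authors was used as an alternative.

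Control spots and outlier spots were dropped, log2 intensities were averaged over the spots of a probe, and a probe was kept if at least 2 of the 4 arrays had it well above background, which left 35087 of 56605 and 13 of the 14 probes of the 10 genes. Flag A, on which the authors filtered, is not defined in the sources used here. The arrays were quantile normalized and compared with limma 3.58.1 in R 4.3.3 (2 residual degrees of freedom, 2.64 added from all probes), with Benjamini-Hochberg adjustment over all probes at a threshold of 0.05. Other genes were followed through their brightest probe. Accessions in the files were turned into symbols for 32994 probes with the GRCm38.p6 gene table. The array design uses another build (mm9), so coordinates are given for the printed start regions only and not for probes. Start regions were taken by symbol, for 8 of the 10 genes. The region of Lmnb1 was left out by its chromosome, and none was used for Ccnd1. All 4 arrays lay on 1 slide, so no slide block was run.

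All probes of the 10 genes are named. From the other lists are named the highest and lowest gene well above background on all 4 arrays, each gene with an unadjusted p under 0.05 and a 1.5-fold change, the brightest gene of a cell type list, and Mdm4, Cdk4, Cdk6, Ccnd2, Ccnd3, Rb1, Lmna, Lmnb2, Bmi1, Ezh2 and Igf1r. The 10 genes and the lists were chosen with earlier results of these data known. Bbc3, E2f5, Il1b, Ucn3, Xist, the Y-linked genes and markers that did not pass the filter were named after their values were seen. A further cell type marker is not reported here.

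The alternatives were a 75th percentile shift, normexp (offset 50, on median spot signals), the authors' rounded values, no filter or a strict filter (all 4 arrays), an intensity trend in limma, the t-test of the methods, averaging the probes of a gene, and leaving out each array. On simulated data for MOTS-c against scrambled with 200 of 35084 probes changed, a log2 change of 1 was called at an adjusted p under 0.05 for 0% of them and a log2 change of 2 for 52%.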

Additional observations from a re-analysis of the deposited data

How the results depend on the processing

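The count of probes at an unadjusted p under 0.05 was 2755, 4633 with no filter on dim probes, and 1596 to 4576 with an array left out. For the 10 genes it was 2 probes, 4 with no filter, 4 with a trend in limma, and 0 to 3 with an array left out (0 without scrambled replicate 1, scrambled replicate 2 or MOTS-c replicate 3). For the gene lists other than cell types it was 10 genes, and 4 to 13 with an array left out. At an adjusted p under 0.05 the methods' t-test called 1 probe in place of 0, outside the 10 genes. The INK4 median of -0.28 ranged from -0.398 to -0.217 with an array left out. With the normexp correction the direction turned for Lmnb1 (0.0701) and Plvap (-0.0045), and with all probes of a gene averaged for Lmnb2 (-0.0073). With 1 array left out it turned for these probes, whose log2 differences ranged as follows. Cdkn1a ranged from -0.206 to 0.0353 (A_51_P363947) and from -0.781 to 0.0797 (A_55_P1986282), Mdm2 from -0.0075 to 0.186 (A_55_P1975475) and from -0.0824 to 0.238 (A_55_P2606086), Trp53 from -0.362 to 0.0053 and Lmnb1 from -0.176 to 0.147. Ccnd2 ranged from -0.0587 to 0.444, Suz12 from -0.0700 to 0.711, Lmna from -0.174 to 0.0540, Lmnb2 from -0.125 to 0.271 and Tmpo from -0.0053 to 0.441. Krt7 ranged from -0.893 to 0.105, Plvap from -0.193 to 0.210, Cd68 from -0.129 to 0.438 and Csf1r from -0.556 to 0.138. The cause was not tested. In the other 634 values of single genes the direction was kept. Those of the methods' t-test and of the trend in limma repeat the reported difference and could not turn. Signal over background limits the Ccnd1 probe, which was not well above background, and 2 arrays a group limit every p. No paired analysis was possible because the groups share only replicate number 2.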
